A study of Mus musculus with 6 samples.

Results

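Genes of cholesterol and fatty acid synthesis were examined in the cortex of mouse embryos with a conditional knockout of the histone deacetylase genes Hdac1 and Hdac2. The set was a list of 44 gene symbols for enzymes, regulators and transporters of the 2 pathways; the rule takes rows by symbol. Of these, 31 had a row in the deposited table, which holds 12041 symbols in all, and 27 passed a filter on low values (3 libraries or more at an FPKM of 1 or higher). The other 13 (Mvd, Fdps, Lss, Sc5d, Srebf1, Scap, Insig2, Elovl1, Elovl6, Elovl7, Acsl1, Acsl3 and Acsl4) were not analysed here. All libraries came from cortex of C57BL/6 embryos at embryonic day 12.5, with 3 libraries of wild type (WT) and 3 of a conditional knockout of both Hdac1 and Hdac2 (cKO). The Cre driver, the deleted exons and whether each library was a separate embryo were not given in the sources used here. Thus the p-values reflect only library-to-library spread, part of which may be technical. The table's names were HC-1, HC-8 and HC-10, read here as WT from the letters alone, and HM-5, HM-13 and HM-16, read as cKO. Values for single libraries are given in this order throughout, in FPKM (fragment counts made relative to transcript length and depth).

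Cholesterol is built from acetyl-CoA by way of mevalonate, farnesyl diphosphate, squalene and lanosterol. Fatty acids are built from the same acetyl-CoA by acetyl-CoA carboxylase and fatty acid synthase, and are then elongated and desaturated. The transcription factors SREBP1 and SREBP2 (genes Srebf1 and Srebf2) switch on both sets of enzymes when membrane sterol is low. Bound to Scap, they are held in the endoplasmic reticulum by the Insig proteins while sterol is high. At promoters they act beside NF-Y, which binds CCAAT boxes. The brain makes most of its own cholesterol, since lipoproteins of the blood hardly enter it once its barrier has formed.

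Fitted with limma across 9359 symbols, 18.0% of all genes differed between cKO and WT at an adjusted p under 0.05, with 8.39% of genes lower and 9.62% higher in cKO. Of the 27 lipid synthesis genes tested, 9 were lower (33.3%) and 2 were higher (7.41%), the latter share being near that of all genes. The genes that fell were Idi1, Fdft1, Cyp51, Msmo1, Nsdhl and Dhcr7 of sterol synthesis, the sterol sensor Insig1, and Acaca and Scd2 of fatty acid synthesis. Those that rose were Npc1, which exports cholesterol from lysosomes, and Acss2, which makes acetyl-CoA from acetate. The median log2 fold change of FPKM + 1 was -0.18 over the 27 genes and -0.01 over all genes, and 20 of the 27 had a fold change below 0. With the filter raised to an FPKM of 5, 24 genes of the set were tested. Of these, 10 were lower (41.7%) and 2 higher (8.33%), against 13.9% and 12.1% of 5756 genes. In bulk cortex, fewer cells of a type and less RNA per cell cannot be told apart. In 1 cKO library, HM-13, the ribosomal RNA gene Rn45s took 29.7% of reads against at most 2.48% in the others. With that library left out, 9 of the 27 genes were still lower and 2 higher, against 8.90% and 10.5% of 9123 genes. With scaling by library totals, Rn45s reads included, 4 were lower (Idi1, Fdft1, Msmo1 and Insig1; 14.8%) and 0 were higher, against 2.13% and 3.38% of all genes under that scaling.

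**Figure D1:**
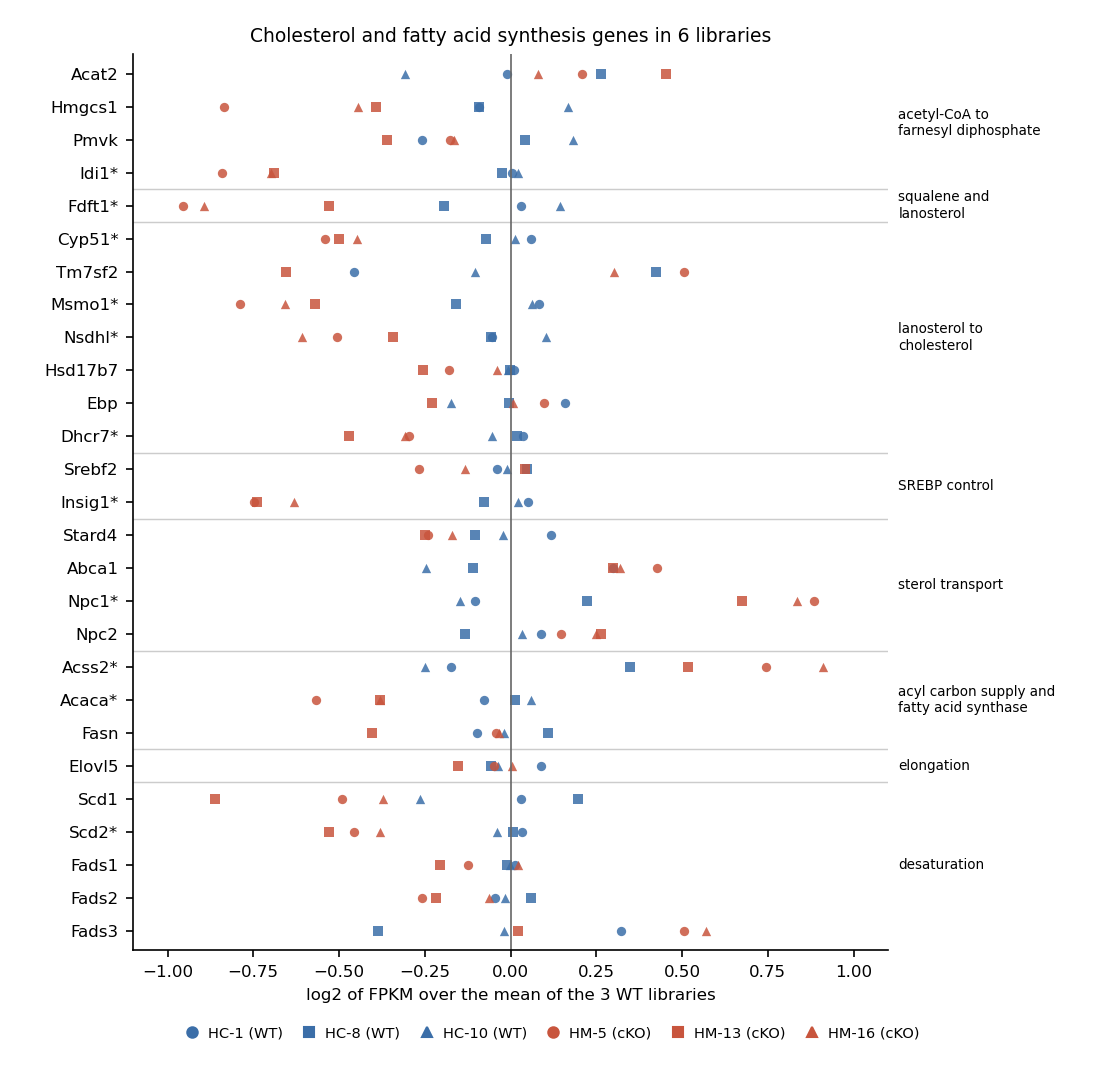
Each row is 1 of the 27 tested genes in pathway order, and each point 1 library, plotted as the log2 of its FPKM over the mean of the 3 WT libraries (blue, WT; red, cKO; a star marks an adjusted p under 0.05). The cKO points lie to the left of all WT points for 14 genes and to the right for 3.

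The whole cKO group lay below the whole WT group for 14 of the 27 genes (51.9%) and above it for 3 (11.1%). Among all genes tested, the groups did not overlap for 39.1%, with cKO below WT in 19.6% and above it in 19.5%. With the filter raised to an FPKM of 5, cKO lay below WT for 54.2% of the set and 24.9% of all genes. All 27 genes were at 1.18 FPKM or more in every library, so none passed the filter through 1 group alone. As a check of the labels, Hdac1 stood at 201 ± 9.82 FPKM in WT and 51.3 ± 8.46 in cKO (25.6% of WT), and Hdac2 at 207 ± 69.2 and 48.9 ± 12.1 (23.6% of WT; mean ± SD, n = 3 each). Reads recovered from the FPKM steps and summed over all rows, Rn45s included, ranged from 9712556 to 11922665 a library. HM-13 had 11473715, of which Rn45s took 29.7%. The defining cortex marker Emx1 was at 166 to 201 FPKM in WT and 147 to 179 in cKO.

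Promoter windows from RefSeq (build GRCm38.p6, 250 bases before to 50 after the transcription start) are shown for Idi1, Insig1 and Cyp51, the genes with a window and the smallest p-values in the set. Hmgcs1 is added because it holds the sterol regulatory element letters, and it was chosen after that match was seen. The windows lie at chr13:8885356-8885655 (plus strand) for Idi1, chr5:28071162-28071461 (plus strand) for Insig1, chr5:4104648-4104947 (minus strand) for Cyp51 and chr13:119690101-119690400 (plus strand) for Hmgcs1. Capitals mark matches, on either strand, to CCAAT (the NF-Y box, read as ATTGG on the other strand), CACGTG (an E-box) or TCACNCCAC (a sterol regulatory element).
Idi1: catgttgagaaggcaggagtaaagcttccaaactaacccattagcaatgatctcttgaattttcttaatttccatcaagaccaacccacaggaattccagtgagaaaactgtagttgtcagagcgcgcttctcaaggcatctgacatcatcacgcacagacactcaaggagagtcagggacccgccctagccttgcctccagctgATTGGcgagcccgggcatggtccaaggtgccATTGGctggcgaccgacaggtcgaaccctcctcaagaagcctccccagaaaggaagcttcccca
Insig1: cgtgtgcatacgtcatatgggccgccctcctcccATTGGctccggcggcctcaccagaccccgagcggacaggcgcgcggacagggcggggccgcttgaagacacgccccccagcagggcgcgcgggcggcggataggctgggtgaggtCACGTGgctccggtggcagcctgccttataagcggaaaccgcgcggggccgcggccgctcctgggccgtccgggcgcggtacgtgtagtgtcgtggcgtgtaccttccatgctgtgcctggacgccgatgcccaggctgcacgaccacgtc
Cyp51: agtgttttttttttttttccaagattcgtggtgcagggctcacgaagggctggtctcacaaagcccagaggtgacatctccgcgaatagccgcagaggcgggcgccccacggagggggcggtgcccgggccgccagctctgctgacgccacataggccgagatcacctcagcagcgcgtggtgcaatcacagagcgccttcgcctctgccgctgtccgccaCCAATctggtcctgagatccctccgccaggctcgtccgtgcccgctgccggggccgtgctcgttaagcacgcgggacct
Hmgcs1: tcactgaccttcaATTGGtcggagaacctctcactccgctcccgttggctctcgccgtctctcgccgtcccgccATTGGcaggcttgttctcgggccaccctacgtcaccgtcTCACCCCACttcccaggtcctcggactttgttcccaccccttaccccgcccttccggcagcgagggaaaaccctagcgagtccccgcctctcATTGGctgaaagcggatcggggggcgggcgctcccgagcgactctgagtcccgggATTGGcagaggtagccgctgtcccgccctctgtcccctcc
Idi1 holds CCAAT boxes that begin 45 and 14 bases before the start, both on the reverse strand. Cyp51 holds 1 CCAAT box on the forward strand, and Insig1 has a CCAAT box and an E-box. Hmgcs1 carries 4 CCAAT boxes and, 137 bases before its start, the sterol regulatory element letters.

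A window was found for 36 of the 44 listed genes (none for Fdps, Fdft1, Sqle, Stard4, Npc1, Scd1, Scd2 and Fads1). A CCAAT box was present in 28 of these 36 (77.8%), against 41.1% of all 27025 genes with a window and 41.7% of the 6267 tested genes with one. Among tested genes with a window, 6 of the 7 called lower held it, as did 11 of the other 14. The E-box letters were in 7 of 36 (19.4%), against 8.09% of all genes with a window and 11.2% of tested genes with one. The sterol regulatory element letters were in 2 of 36 (Hmgcs1 and Acsl1), against 1.44% of all genes with a window and 1.15% of tested genes with one, and in 0 of the 7 genes called lower. These counts describe letters in a short window: a match is no shown binding site, and a missing match says nothing of a factor. Genes with several windows were counted once, as holding a motif if any window held it, and none of the 3 motifs contains another.

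**Figure D2:**
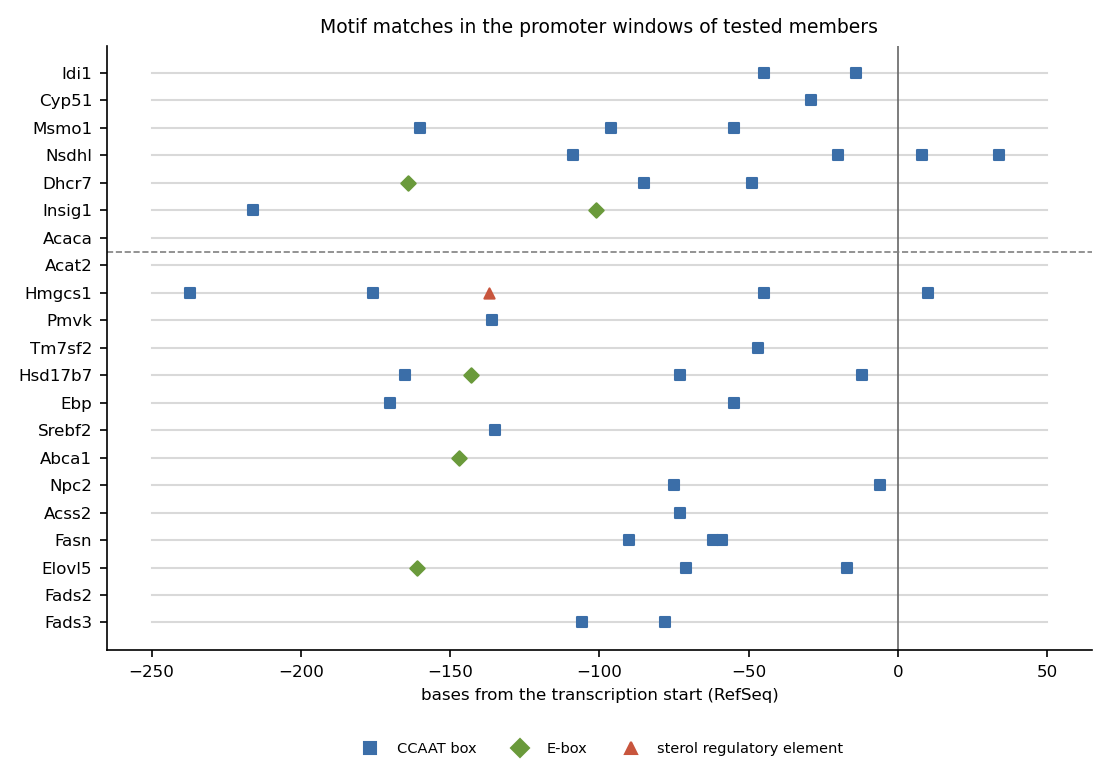
Positions of motif matches on either strand in the RefSeq promoter windows of the 21 tested genes that have a window, in bases from the transcription start, with the windows of 1 gene overlaid. The 7 genes above the dashed line were lower in cKO, and CCAAT boxes (squares) are frequent above and below it.

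The early steps of sterol synthesis, from acetyl-CoA to farnesyl diphosphate, had 4 tested genes of 7 listed. Idi1 (chromosome 13, 8885501 to 8892451, mm10 coordinates from GENCODE M21) isomerises isopentenyl diphosphate, the building unit of all isoprenoids. It was at 57.1, 56.1 and 57.8 FPKM in WT and at 31.8, 35.3 and 35.2 in cKO. All cKO libraries lay well below all WT libraries, at 59.8% of the WT mean (log2 fold change -0.73, SE 0.06; limma adjusted p = 0.00117). Hmgcs1, which makes HMG-CoA from acetoacetyl-CoA, was at 2.15, 2.15 and 2.58 FPKM in WT and 1.29, 1.75 and 1.68 in cKO. Its groups did not overlap, but the difference did not pass the threshold (limma adjusted p = 0.0847), and the row rested on 27 to 51 reads a library. Summed over the 2 rows of Hmgcs1, the limma adjusted p was 0.0445. Acat2, the cytosolic acetoacetyl-CoA thiolase, and Pmvk, which phosphorylates mevalonate phosphate, had overlapping groups, at 119% and 85.2% of the WT mean. A second, minor row of Pmvk was at 73.7% of WT, with all cKO libraries below all WT libraries. Summed over its 2 rows, Pmvk did not pass (limma adjusted p = 0.137). Mvk, mevalonate kinase, was under the filter at 0.163 to 0.35 FPKM in WT and 0.385 to 0.629 in cKO.

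Squalene and lanosterol synthesis was represented by Fdft1, squalene synthase, the first step committed to sterols (chromosome 14, 63145150 to 63179578). Fdft1 was at 84.96, 72.7 and 91.9 FPKM in WT and at 43.0, 57.7 and 44.8 in cKO. The groups were apart although both were spread, and the cKO mean was 58.3% of WT (log2 fold change -0.77, SE 0.13; limma adjusted p = 0.00873). This was the largest log2 fall among the 27 genes. Sqle, squalene epoxidase, had 3 to 17 reads a library and was not tested: 0.291, 0.485 and 0.41 FPKM in WT and 0.225, 0.127 and 0.173 in cKO. The rows of Hmgcs1, Sqle, Mvk, Acat2 and Acly held few reads and the annotation used for counting was not given, so that a low row cannot be read as a low level of the gene.

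The steps from lanosterol to cholesterol had 7 tested genes, of which 4 fell (57.1%, against 8.39% of all genes). Cyp51, the lanosterol demethylase (chromosome 5, 4081145 to 4104746), was at 115, 105 and 111 FPKM in WT and at 75.7, 77.8 and 80.8 in cKO. Both groups were tight and apart, with cKO at 70.9% of WT (log2 fold change -0.49, SE 0.06; limma adjusted p = 0.00353). Msmo1, the C4-methyl sterol oxidase (chromosome 8, 64718139 to 64733792), acts after it. Msmo1 was at 115, 97.2 and 113 FPKM in WT and at 62.8, 73.2 and 68.8 in cKO. The lowest WT library stayed above the highest cKO library, and cKO was at 62.9% of WT (log2 fold change -0.66, SE 0.09; limma adjusted p = 0.00458). A second, minor row of Msmo1 was at 71.4% of WT with overlapping groups.

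Nsdhl, the X-linked sterol C4 decarboxylase that follows Msmo1, was at 46.9, 46.8 and 52.3 FPKM in WT and at 34.3, 38.4 and 31.9 in cKO. Its cKO libraries lay below all WT libraries, at 71.7% of WT (log2 fold change -0.47, SE 0.09; limma adjusted p = 0.0119). The call was lost without HM-5 (limma adjusted p = 0.0568) and without HM-16 (limma adjusted p = 0.0503). Dhcr7 makes cholesterol from 7-dehydrocholesterol in the last step of one branch (chromosome 7, 143823145 to 143848410). Dhcr7 was at 39.9, 39.4 and 37.5 FPKM in WT and at 31.7, 28.1 and 31.5 in cKO. The groups were apart with cKO at 78.1% of WT (log2 fold change -0.35, SE 0.07; limma adjusted p = 0.0172). Without HC-1, HM-5 or HM-16 its limma adjusted p was 0.0513, 0.0563 or 0.0537, and it was 0.0529 with library totals that leave out Rn45s.

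The other sterol genes of these late steps did not pass. Hsd17b7, the 3-ketosteroid reductase partner of Nsdhl, was at 10.6, 10.5 and 10.5 FPKM in WT and 9.32, 8.83 and 10.3 in cKO, apart but close (limma adjusted p = 0.294). Ebp, the sterol isomerase, and Tm7sf2, a C14 sterol reductase, had overlapping groups at 97.6% and 110% of WT, and the sign of both turned under some settings. The 95% interval of the log2 fold change ran from -0.30 to 0.24 for Ebp and from -0.49 to 0.65 for Tm7sf2. Across all 12 tested sterol synthesis genes, 6 were lower and 0 were higher, against 8.39% and 9.62% of all genes. The 12 had a median log2 fold change of -0.35, against -0.01 over all genes. In 8 of the 12 the cKO group lay below the WT group, against 19.6% of all genes.

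**Figure D3:**
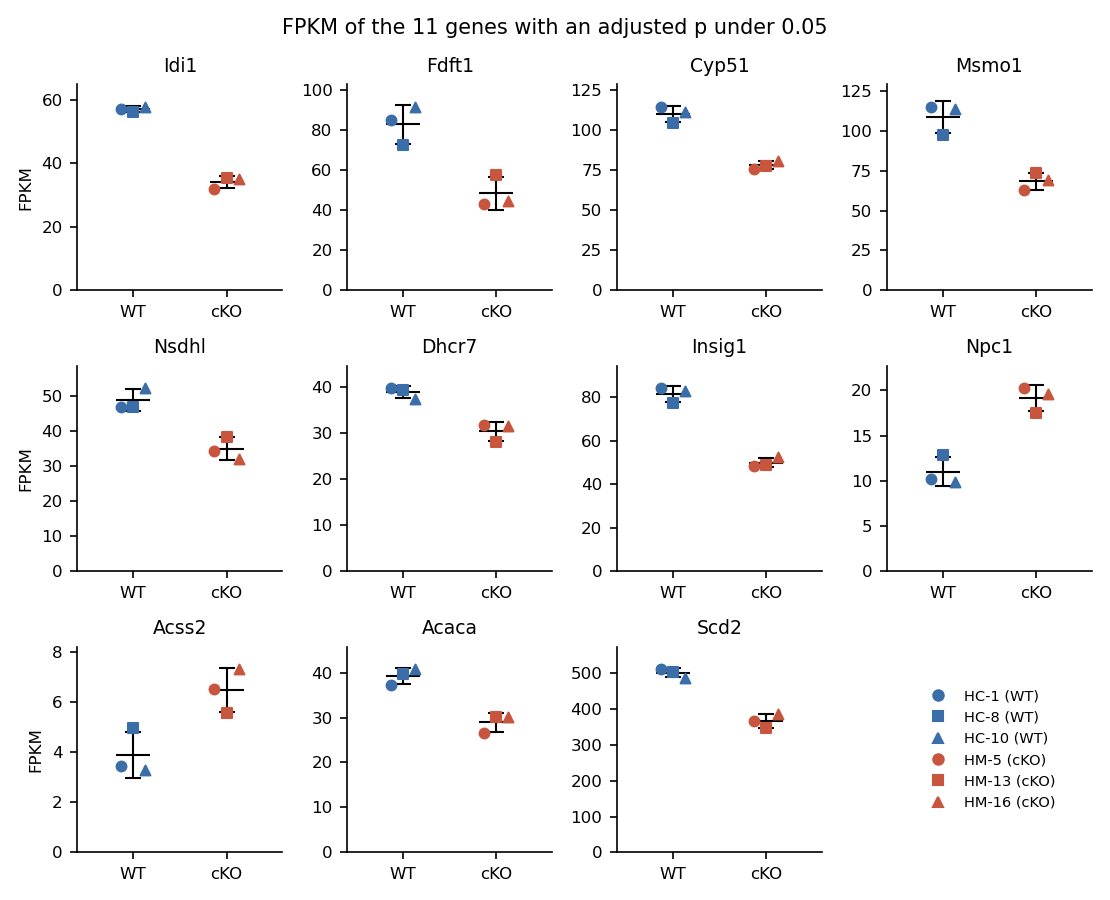
FPKM of the 11 genes past the threshold, in each library (points), with the mean and SD of the 3 libraries of each group (black bars) on axes that start at 0. In 9 genes all cKO points lie below all WT points, and in Npc1 and Acss2 all lie above.

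Of the control genes, Insig1 retains the SREBP complex in the endoplasmic reticulum and is itself an SREBP target (chromosome 5, 28071363 to 28078662). Insig1 was at 84.4, 77.3 and 82.7 FPKM in WT and at 48.6, 48.8 and 52.6 in cKO. The groups were far apart, with cKO at 61.4% of WT (log2 fold change -0.69, SE 0.06; limma adjusted p = 0.00134). Srebf2, which encodes the SREBP that favours sterol genes, was at 11.3, 11.99 and 11.5 FPKM in WT and 9.64, 11.9 and 10.6 in cKO. Its groups overlapped, at 92.4% of WT, and the 95% interval of its log2 fold change ran from -0.34 to 0.12. The row used for Srebf2 implies a transcript of 0.387 times the named length, and a second row of it was at 99.5% of WT.

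Of the 4 sterol transport genes, 1 rose, Npc1, and 0 fell. Npc1 was at 10.2, 12.8 and 9.93 FPKM in WT and at 20.3, 17.5 and 19.6 in cKO. Every cKO library was above every WT library, by 1.74-fold in the mean (log2 fold change 0.75, SE 0.11; limma adjusted p = 0.00637). Npc2, which hands cholesterol to Npc1 inside the lysosome, was at 101, 86.2 and 96.9 FPKM in WT and 105, 113 and 112 in cKO, apart but not past the threshold (limma adjusted p = 0.0764). Stard4, a carrier of sterol between membranes, was at 37.3, 32.0 and 34.0 FPKM in WT and 29.2, 29.0 and 30.6 in cKO, again apart but not past it (limma adjusted p = 0.0909). Abca1, the cholesterol efflux pump, was at 7.17, 5.41 and 4.91 FPKM in WT and 7.83, 7.17 and 7.27 in cKO. Its groups touched at the HC-1 library (limma adjusted p = 0.149), and without HC-1 the limma adjusted p was 0.0462. With quantile normalization Npc2 and Stard4 passed the threshold (limma adjusted p = 0.0109 and 0.0421).

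In fatty acid synthesis, 9 of 17 listed genes were tested, with a median log2 fold change of -0.16. Of these, 2 were lower (22.2%) and 1 was higher (11.1%), against 8.39% and 9.62% of all genes. Acaca, acetyl-CoA carboxylase 1, makes malonyl-CoA, the first committed step (chromosome 11, 84129672 to 84401651). Acaca was at 37.2, 39.6 and 40.9 FPKM in WT and at 26.5, 30.1 and 30.1 in cKO. The groups were apart with cKO at 73.7% of WT (log2 fold change -0.43, SE 0.08; limma adjusted p = 0.0113). Fasn, the synthase that uses malonyl-CoA, was at 112, 129 and 119 FPKM in WT and 117, 90.9 and 117 in cKO. Its groups overlapped: HM-5 and HM-16 lay among the WT libraries and HM-13 below them. The 95% interval of its log2 fold change ran from -0.41 to 0.10 (limma adjusted p = 0.357).

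Acss2 (chromosome 2, 155517948 to 155585724) was at 3.45, 4.96 and 3.28 FPKM in WT and at 6.52, 5.57 and 7.33 in cKO. The cKO libraries were above all WT libraries, by 1.66-fold in the mean (log2 fold change 0.62, SE 0.16; limma adjusted p = 0.0364). The call was lost when HM-5, HC-1, HM-16 or HC-10 was left out, with a highest limma adjusted p of 0.123. Acly, which makes acetyl-CoA from citrate, and Acacb, acetyl-CoA carboxylase 2 of the mitochondrial surface, were under the filter. Acly was at 0.522 to 0.721 FPKM in WT and 0.364 to 0.859 in cKO. Acacb was at 0.0314, 0.0555 and 0.0664 FPKM in WT and 0.198, 0.192 and 0.0894 in cKO, which is 3 to 19 reads a library.

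Desaturation and elongation were carried by 6 tested genes. Scd2, the main stearoyl-CoA desaturase of the brain, had the highest level of the 31 genes in every library (chromosome 19, 44293674 to 44306864). Scd2 was at 514, 505 and 489 FPKM in WT and at 366, 348 and 386 in cKO. The groups were apart and tight, with cKO at 73.0% of WT (log2 fold change -0.45, SE 0.06; limma adjusted p = 0.00491). Scd1, its neighbour on the same chromosome, encodes a second stearoyl-CoA desaturase. Scd1 was at 17.9, 20.1 and 14.6 FPKM in WT and 12.5, 9.65 and 13.5 in cKO. The groups were apart at 67.8% of WT, just outside the threshold (limma adjusted p = 0.0516), and on recovered reads with voom the adjusted p was 0.0321. The 2 genes are close paralogs, and how shared reads were counted was not given.

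The front-end desaturases Fads1 and Fads2, which make long polyunsaturated fatty acids, and the related Fads3 did not pass. Fads2 was at 96.4, 104 and 98.4 FPKM in WT and 83.1, 85.5 and 95.3 in cKO, apart by a small margin (limma adjusted p = 0.116). Fads1 and Fads3 had overlapping groups at 93.3% and 131% of WT. Elovl5, the elongase of polyunsaturated chains, was at 80.3 to 88.7 FPKM in WT and 75.02 to 83.7 in cKO, with a 95% interval of the log2 fold change from -0.22 to 0.10.

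Of the 11 genes past the threshold, 8 kept an adjusted p under 0.05 in each of the 6 fits that left out 1 library, the exceptions being Nsdhl, Dhcr7 and Acss2. In the authors' deposited table, 12 of the 28 genes of the set with an FDR had one under 0.05, against 19.3% of all 9870 rows with an FDR. These were the 11 genes above and Scd1 (FDR 0.00125 in the authors' deposited table). The median over the 27 genes of the log2 FPKM deviation from the WT mean was -0.23 for HM-5, -0.26 for HM-13 and -0.12 for HM-16, so all 3 cKO libraries lay on the same side.

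Other lipid genes were taken from lists by function. In a list of further sterol synthesis and branch genes, Fdxr, the mitochondrial ferredoxin reductase that serves sterol hydroxylases, was 1.33-fold higher (limma adjusted p = 0.0235). Its call was lost without HM-16, HC-8 or HM-5, with a highest limma adjusted p of 0.0997. Calls in this sterol list went both ways, and the list is not given in full here. Of 9 further SREBP control and NF-Y genes, limma called 0, with 4 at an unadjusted p under 0.05, and voom called 0. Of all 9359 genes tested, 3209 had an unadjusted p under 0.05, and limma called 18.0% and voom 20.4%.

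Of 12 genes of sterol uptake, efflux and storage, 3 were higher and 0 were lower, against 9.62% and 8.39% of all genes. Cyp27a1, sterol 27-hydroxylase, was 2.42-fold higher (limma adjusted p = 0.0169), though at 1.31 to 2.76 FPKM in WT. Cyp46a1, the cholesterol 24-hydroxylase of neurons, was at 150.4% of WT and Lrpap1, a chaperone of lipoprotein receptors, at 119% (limma adjusted p = 0.0267 and 0.0401). The call of Cyp27a1 was lost without HM-16 or HM-5, that of Cyp46a1 without either of these, HC-8 or HC-10, and that of Lrpap1 without any 1 library (highest limma adjusted p = 0.072, 0.107 and 0.134).

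In the list of further fatty acid synthesis and elongation genes, 4 of 8 were higher and 0 were lower. Among all genes, 9.62% were higher and 8.39% lower. Slc25a1 carries citrate out of mitochondria for acetyl-CoA supply. It was at 72.5, 68.5 and 74.3 FPKM in WT and at 135, 108 and 139 in cKO. It was thus 1.77-fold higher with groups far apart (log2 fold change 0.81, SE 0.10; limma adjusted p = 0.00375). Hacd2, a dehydratase of the elongation cycle, Mecr, of mitochondrial fatty acid synthesis, and Elovl4, an elongase, were 1.37-fold, 1.26-fold and 1.24-fold higher (limma adjusted p = 0.0168, 0.0422 and 0.0492). The call of Hacd2 was lost without HM-16, HC-10 or HM-5, and those of Mecr and Elovl4 without any 1 library but HM-13 (highest limma adjusted p = 0.0676, 0.124 and 0.168).

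Fatty acid oxidation, the breakdown of fatty acids in mitochondria and peroxisomes, was listed as the opposing pathway. Of its 16 tested genes, 9 were higher and 0 were lower, with a median log2 fold change of 0.27, against 9.62% of all genes higher. Cpt1a, which admits fatty acids to mitochondria and is inhibited by malonyl-CoA, was at 24.04, 19.5 and 18.9 FPKM in WT and at 47.6, 39.9 and 48.1 in cKO. Its groups were far apart, by 2.17-fold (log2 fold change 1.09, SE 0.11; limma adjusted p = 0.00201). Acadm, the medium-chain acyl-CoA dehydrogenase, was 1.75-fold higher (limma adjusted p = 0.00171). Acaa2, the thiolase of the cycle, was 1.81-fold and Hadh, a dehydrogenase of the cycle, 1.33-fold higher (limma adjusted p = 0.00143 and 0.00573). The count of higher oxidation genes was 8 without HM-13 and 5 without HM-16, HC-10 or HM-5, while scaling by library totals left 3. The share of all genes higher was 10.5% without HM-13, 3.11% without HM-16, 5.71% without HC-10, 3.18% without HM-5 and 3.38% with library totals, against 31.2% of the oxidation genes at a count of 5 and 18.8% at a count of 3.

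The remaining lists held few calls. Higher calls took 12.5% of the acyl-CoA synthetase and binding list and 22.2% of the glycerolipid and phospholipid list, against 9.62% of all genes. Among acyl-CoA synthetases and binding proteins, 1 of 8 was higher, Acss3, a short-chain acyl-CoA synthetase that passed the filter only through its cKO values (0.264 to 0.811 FPKM in WT, 1.31 to 2.08 in cKO; limma adjusted p = 0.0304). Among glycerolipid and phospholipid genes, 2 of 9 were higher, Dgat2, which makes triglyceride (1.87-fold; limma adjusted p = 0.0176), and Ptdss2, a phosphatidylserine synthase (at 122% of WT; limma adjusted p = 0.0458). Without 1 library the calls of Acss3 (HC-1 or HC-10), Dgat2 (HM-16, HC-10 or HM-5) and Ptdss2 (any of the 6) were lost, with a highest limma adjusted p of 0.07, 0.0706 and 0.15. Of 8 sphingolipid genes, limma called 0, with 3 at an unadjusted p under 0.05, and voom on recovered reads called 2. For comparison, 3209 of all 9359 genes had an unadjusted p under 0.05, and voom called 20.4% of all genes.

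**Figure D4:**
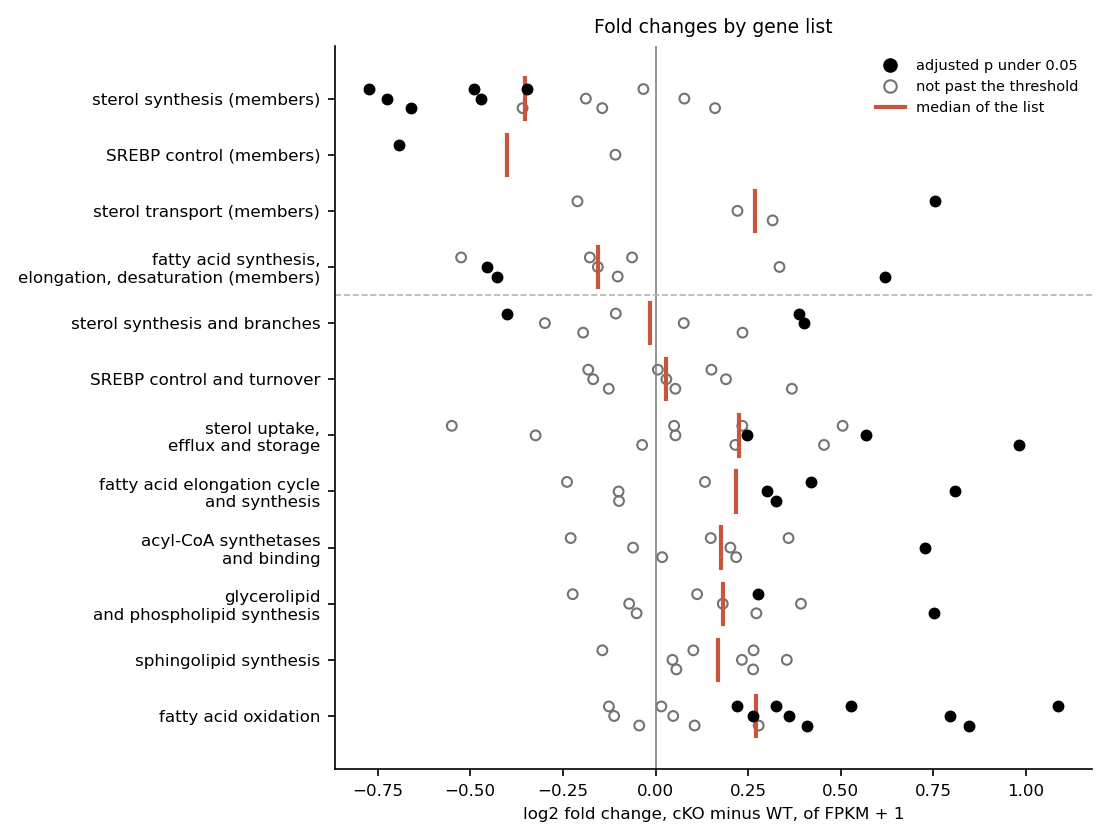
Log2 fold change (cKO minus WT) of FPKM + 1 for each tested gene, by list, with the genes of the set above the dashed line and other lipid genes below it (filled, adjusted p under 0.05; red bar, median of the list). Sterol synthesis genes lie mostly to the left of 0 and 9 of 16 fatty acid oxidation genes are filled to the right of it.

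Levels of markers were summed for the cell types that the dissected tissue can hold. Neuron markers summed to 1196 to 1580 FPKM in WT and 863 to 1294 in cKO. Of these 9, 0 were past the threshold by limma, 4 were at an unadjusted p under 0.05 and 2 passed by voom. Over all genes, limma called 8.39% lower and 9.62% higher, voom called 20.4%, and 3209 of 9359 had an unadjusted p under 0.05. The log2 fold changes of all 9 neuron markers were negative (median -0.41). In 2 of them (22.2%) the cKO group lay below the WT group, against 19.6% of all genes. Radial glia markers summed to 2998 to 3276 in WT and 2471 to 2897 in cKO, with 1 of 5 tested past the threshold (Fabp7, lower). Of the 5, 3 had a log2 fold change above 0, and the median was 0.22. The cKO group lay above WT in 2 of the 5 and below it in 1, against 19.5% and 19.6% of all genes. Intermediate progenitor markers summed to 339 to 426 in WT and 261 to 356 in cKO, with 1 of 6 past it (Btg2, lower). Microglia and macrophage markers summed to 51.1 to 62.6 in WT and 69.1 to 81.0 in cKO, with 2 of 6 past it (Tyrobp and C1qb, higher); Csf1r, Ptprc and Aif1 of that list and Pax6 of the radial glia list were not analysed here. Of the other marker lists, that of cortex identity had Emx2 higher and is not given in full here, the astrocyte and oligodendrocyte list 1 of 2 higher (Mbp), and the remaining 6 lists 0 by limma, with 2 genes at an unadjusted p under 0.05, and 0 by voom. The part of these shifts in the lipid gene differences was not tested.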

How the data were processed

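RNA from 3 WT and 3 cKO libraries was analysed from 1 deposited table of 14379 rows, with several rows for 1950 symbols. It holds FPKM values per library, made by the authors, and the authors' mean normalized count per row (a signal), log2 fold change, p-value and FDR, per the file headers. Per the submitters' processing notes, the tools were STAR 2.5.4b, featureCounts 1.6.1 and DESeq2 1.22.1 with build mm10, their roles and the annotation being not given in the sources used here. Per symbol, the row of highest mean normalized count was kept. Symbols with 3 libraries or more at an FPKM of 1 or higher were fitted as log2(FPKM + 1) in limma 3.58.1 (R 4.3.3, two-sided moderated test with an intensity trend, Benjamini-Hochberg over all 9359 symbols, threshold 0.05). The pseudocount understates the fold change of low genes. Whole reads were recovered from the FPKM steps and the mean normalized count (100% of values whole within 0.001 reads), and voom on them was an alternative. Intervals are at 95%. All 44 genes are named. Of the other lists, up to 4 genes past the threshold with the smallest p-values are. Some results of the other lists are not reported here. The members and lists were chosen with earlier results of these data known.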

Additional observations from a re-analysis of the deposited data

How the results depend on the processing

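Results were recomputed under 16 alternatives to pseudocount, filter, rows, scaling, test and libraries. Of 429 single-gene results, 397 kept direction and side of the threshold, 17 fell below it, 9 passed it and 6 turned sign. With library totals as the scaling, 515 genes changed in all, against 1685, 4 members were lower, 0 were higher and the members' median log2 fold change was -0.26. With totals that leave out Rn45s this median was -0.12. Leaving out 1 library at a time gave 511 (without HM-5) to 1773 (without HM-13) changed genes, 7 to 10 members lower and 1 to 2 higher. Counts of all changed genes were 1103 without HC-1, 888 without HC-10 and 545 without HM-16. Log2 fold changes that turned sign were those of Tm7sf2, -0.085 to 0.323 when 1 library was left out, and of Ebp, -0.112 to 0.056 when 1 library was left out and 0.023 with totals that leave out Rn45s. The cause of these shifts was not tested. No paired analysis was possible because the columns carry no replicate numbers that match the labels. With 3 libraries a group, rows of few reads (Sqle, Mvk, Acly, Acacb, Hmgcs1) give little precision.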
